A study of Rattus norvegicus with 8 samples.

Results

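Mesothelial cells form the single-layered lining of body cavities and of organs such as the liver, and they carry both mesenchymal and epithelial genes. Genes known from them, *Msln*, *Upk1b*, *Bnc1*, *Gpm6a* and *Wt1*, were followed here together with genes of simple epithelia, the keratins *Krt8*, *Krt18* and *Krt19* and the cadherin *Cdh1*. These 9 genes were chosen by name. All non-control probes whose RefSeq transcript carries one of these names were taken, which gave 14 probes of the 41012 on the arrays and 9 genes of the 21309 tested.

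The study profiled RNA labelled as adipose-tissue-derived mesenchymal stem cells (ATSC) of rat on 8 single-colour arrays. Of these, 3 were on livers injured by ischemia and reperfusion (IRI), that is, by loss and return of the blood supply, 4 were on uninjured livers (non-IRI) and 1 was kept in culture (in vitro). All 8 share 1 source as labelled: subcutaneous fat of male Sprague-Dawley rats, digested with collagenase, filtered and grown in medium with serum. The labels name no sort, clone, transgene or age, no step that parts the ATSC from the liver they lay on, and no separate animal for each replicate, so every p-value below measures only the spread between these samples. The RNA is bulk, so fewer cells of a type and less RNA per cell cannot be told apart. Of 12 stromal genes listed as markers of the labelled cell type, 11 were measurable on these arrays, and all 11 were well above background in the culture and on every liver array except non-IRI 1, where 10 were.

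Keratins build the intermediate filaments of epithelial cells as pairs of a type II and a type I chain. *Krt8* (type II) and *Krt18* (type I) are the pair of hepatocytes and other simple epithelia, *Krt19* is a type I keratin of bile ducts and mesothelium, and *Cdh1* encodes E-cadherin, the adhesion molecule of epithelial junctions. *Msln* encodes mesothelin, a surface glycoprotein of mesothelial cells; *Upk1b* encodes uroplakin 1B, a tetraspanin best known from the urothelium; *Bnc1* and *Wt1* encode zinc finger transcription factors; and *Gpm6a* encodes a proteolipid-family membrane glycoprotein best known from neurons.

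The stretches upstream of *Krt8*, *Krt18* and *Gpm6a* are shown because the first pair are partner keratins that lie close together in the genome and *Gpm6a* is the 1 member that passed the test between the liver groups. RefSeq (rat build GRCr8) gave a promoter for 6 of the 9 members, and each stretch covers 250 to 51 bases before the annotated start, 5′ to 3′ on the gene's strand. Capitals mark matches on either strand to the motifs searched. These were TATAAA, the core element that places the start of many transcripts, then GGGCGG, the element bound by Sp-family factors, and GCGNGGGCG, whose letters are those of a known WT1 and EGR1 site. The element CCAAT was searched too and was in none of the stretches shown. *Krt8* lies at chr7:135010390-135010589 (minus strand), *Krt18* at chr7:135035918-135036117 (plus strand) and *Gpm6a* at chr16:43706512-43706711 (minus strand).
Krt8: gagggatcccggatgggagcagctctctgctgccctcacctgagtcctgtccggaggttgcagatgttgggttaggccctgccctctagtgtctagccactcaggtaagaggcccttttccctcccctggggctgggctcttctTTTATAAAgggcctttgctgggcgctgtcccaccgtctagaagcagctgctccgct
Krt18: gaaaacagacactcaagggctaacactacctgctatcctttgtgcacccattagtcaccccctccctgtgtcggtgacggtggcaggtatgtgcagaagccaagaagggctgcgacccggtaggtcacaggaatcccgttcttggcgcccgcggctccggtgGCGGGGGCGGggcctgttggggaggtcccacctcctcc
Gpm6a: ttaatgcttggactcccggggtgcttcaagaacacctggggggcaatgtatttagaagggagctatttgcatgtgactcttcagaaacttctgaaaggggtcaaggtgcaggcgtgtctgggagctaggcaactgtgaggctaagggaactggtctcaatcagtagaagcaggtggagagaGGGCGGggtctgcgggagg
The *Krt8* stretch held TATAAA once on each strand, overlapping, with the first match 106 bases before the start; 9.98% of the 33469 rat promoters searched held it. The *Krt18* stretch held GCGNGGGCG 88 bases and an overlapping GGGCGG 84 bases before the start, which 3.05% and 24.2% of promoters held. The *Gpm6a* stretch held GGGCGG 69 bases before the start. A match describes letters and not a bound site. Bases nearer the start than 51 were not searched, in the members or for the shares, so an element lying there would not be seen. *Krt8* and *Krt18* both lie on chromosome 7, with 1 annotated gene between them that is not protein-coding.

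All 9 genes were higher on liver than in the culture. Levels are log2 of the processed signal relative to the array's 75th percentile, so that 0 is that percentile, and they are read within a probe, not between genes. In the mean of the liver groups against the culture, 9 of 9 members rose at an adjusted p under 0.05 (limma, Benjamini-Hochberg over 21298 genes), where 16.0% of all genes rose. All 7 liver arrays lay above the culture array for 9 of 9 members, against 24.4% of all genes. Both counts include 5 members that were kept through the liver arrays alone, so for these the rise is a description and not a test. The other 4 had a measured level in culture on the probe used for the gene. The members' median fitted log2 difference was 5.06, or 3.85 with the genes that the culture did not measure set at their bounds, beside -0.25 over all genes tested. The culture is a single array, whose spread was taken to be that of the liver arrays.

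The genes of mesothelium split by whether the culture had a measurable level. *Msln* (NM_031658) stood at 5.84, 5.39 and 5.46 on IRI 1 to 3, at 5.80, 6.28, 5.60 and 6.21 on non-IRI 1 to 4, and at 0.90 in the culture. The liver groups overlap and both are far above the culture, by 4.86 on the log2 scale (SE 0.31, limma adjusted p = 2.5e-05). *Upk1b* (NM_001024253) read 3.47, 3.90 and 3.67 with IRI, 5.10, 4.76, 4.04 and 4.79 without, and -0.88 in culture, a log2 difference of 5.06 between liver and culture (SE 0.37, limma adjusted p = 5.02e-05). All 4 non-IRI arrays lay above the 3 IRI arrays for *Upk1b*.

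*Wt1* (NM_031534) encodes a regulator of mesothelial and kidney development. Its levels were 2.82, 2.55 and 2.35 with IRI, 3.08, 3.08, 2.26 and 2.91 without, and -0.85 in culture, and it rose by 3.55 on the log2 scale (SE 0.34, limma adjusted p = 0.000225). *Bnc1* (NM_001108916), a regulator of epithelial and germ cells, had the smallest fitted difference of the 9 members between liver and culture. It read -1.12, -1.33 and -2.35 with IRI, 0.32, 0.37, -0.44 and -0.33 without, and -2.97 in culture, a log2 difference of 2.16 (SE 0.49, limma adjusted p = 0.0127). The IRI arrays lay between the culture and the non-IRI arrays without overlap.

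*Gpm6a* (NM_178105) was not well above background in the culture, where it read -6.63. Its levels were -3.03, -3.60 and -3.75 with IRI and -1.27, -1.37, -2.64 and -1.62 without, and all 7 liver arrays were well above background. The IRI arrays lay below every non-IRI array. With the culture set at its detection floor, *Gpm6a* was at least 3.62-fold higher on liver than in culture (limma adjusted p = 0.00085).

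*Krt8*, *Krt18*, *Krt19* and *Cdh1* were also not well above background in the culture, so 5 of 9 members lacked a measured culture level, against 12.6% of all genes tested, and their differences from the culture are lower bounds. These 5 were kept through the liver arrays alone, so their counts and p-values against the culture describe these arrays and are no independent test. The same holds below for every listed gene that was not well above background in the culture, also where it is only part of a count or median. Each bound sets the liver mean against the higher of 2 values on the culture array, the probe's own level or the lowest level there that was well above background. *Krt18* (NM_053976) stood at 3.89, 4.70 and 3.65 with IRI and at 5.05, 5.31, 5.19 and 4.30 without, and read -6.55 in culture. It was at least 503-fold higher on liver (limma adjusted p = 3.03e-06), the largest bound of these genes.

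Its partner *Krt8* (NM_199370) read -1.66, 0.11 and -1.01 with IRI, -0.11, -0.36, -0.14 and -0.75 without, and -5.70 in culture, at least 14.5-fold higher on liver (limma adjusted p = 0.000429). *Krt19* (NM_199498) read -0.92, -1.55 and -1.32 with IRI, 0.22, -0.25, -1.25 and -0.81 without, and -6.14 in culture, at least 11.8-fold higher on liver (limma adjusted p = 0.000204). The liver groups overlap for both keratins, and *Krt8* spread more among the IRI arrays (SD 0.90, n = 3) than among the non-IRI arrays (SD 0.30, n = 4). *Cdh1* (NM_031334) read 0.25, -0.83 and 0.29 with IRI, -0.72, -0.79, -0.41 and -0.74 without, and -6.73 in culture, at least 16.8-fold higher on liver (limma adjusted p = 2.44e-05).

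**Figure D1:**
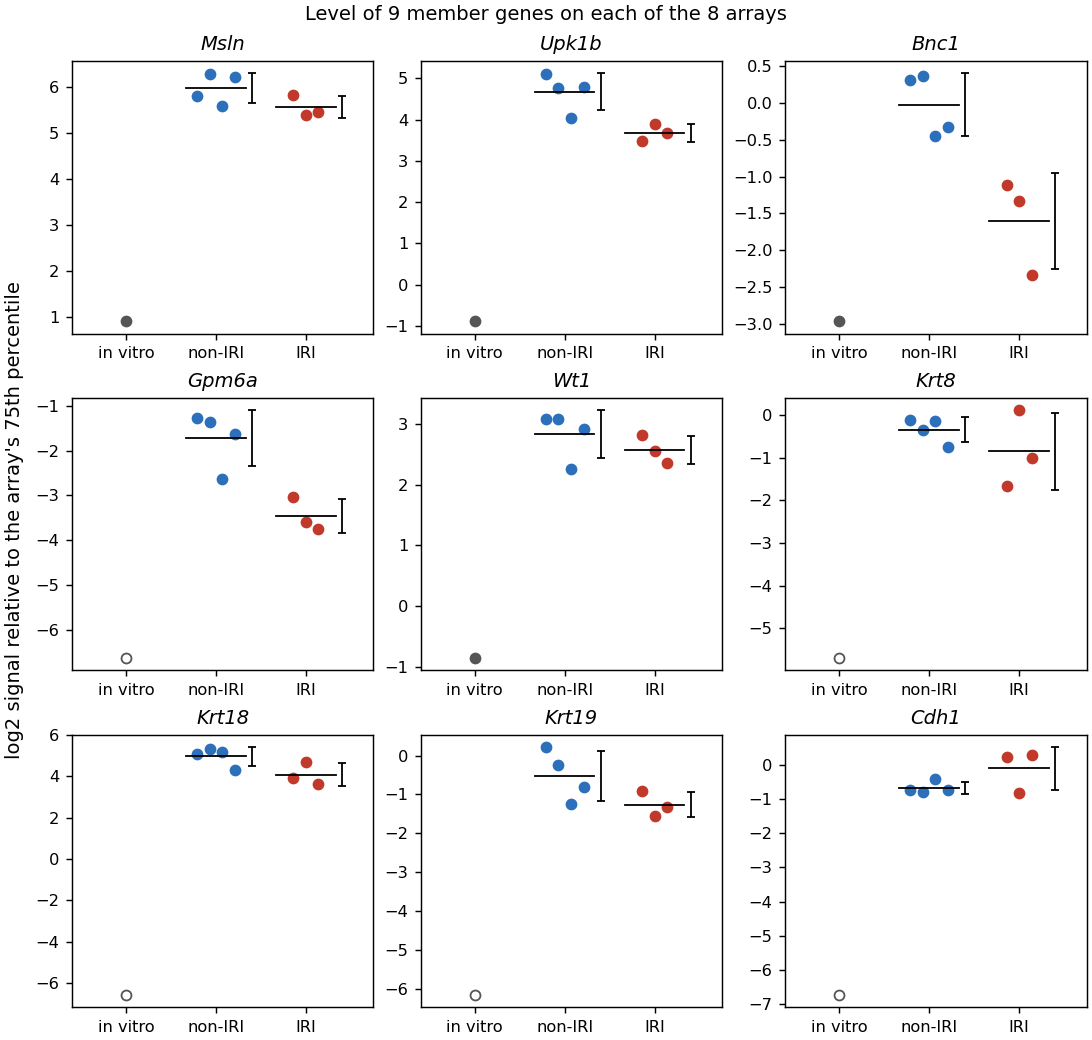
Levels of the 9 genes on the 8 arrays, as log2 signal relative to the array's 75th percentile (vertical axes, each with its own range), for the culture (grey), non-IRI (blue) and IRI (red) arrays. Points are arrays, open where the probe was not well above background, lines are means and bars are 1 SD; all liver points lie above the culture point in each panel.

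Per the file headers, the IRI arrays and the culture array were read in scan 1 and the non-IRI arrays in scan 2, on separate slides. Injury and scan therefore cannot be told apart in any comparison of IRI with non-IRI, and a fit with scan as a block could not be made for it. Within scan 1, where only IRI against culture can be had, 8 of 9 members rose, against 14.2% of all genes. *Bnc1* was the exception, with a log2 difference of 1.37 (limma adjusted p = 0.0869). The log2 difference within scan 1 was 4.66 for *Msln*, 4.56 for *Upk1b* and 3.43 for *Wt1*, and the lower bound was 370-fold for *Krt18* and 1.99-fold for *Gpm6a*. The member counts against culture given here include the 5 kept through the liver arrays alone, for which they are a description. Non-IRI against culture, which crosses the scans and uses the same culture array, had 9 of 9 members rise, against 16.8% of all genes. It gave 5.07 for *Msln*, 5.56 for *Upk1b*, 3.68 for *Wt1* and 2.95 for *Bnc1* (limma adjusted p = 0.00415 for *Bnc1*), and bounds of 683-fold for *Krt18* and 6.61-fold for *Gpm6a*.

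Between the liver groups, *Gpm6a* alone passed the test. With IRI it fell by 1.74 on the log2 scale against non-IRI (SE 0.36, limma adjusted p = 0.0464), with mean levels of -3.46 ± 0.38 (SD, n = 3) and -1.73 ± 0.63 (SD, n = 4). Of 9 members 1 fell and 0 rose in the limma fit, where 2.64% of all 21309 genes fell and 0.357% rose. At an unadjusted p under 0.05, 4 were lower and 0 higher. The share of all genes at that unadjusted threshold was not counted, so this count and the unadjusted counts for gene lists below cannot be read as an excess. The IRI levels of *Gpm6a*, -3.03 to -3.75, lay not far above the lowest levels well above background on those arrays, -4.08 to -4.67. The *Gpm6a* call is close to the threshold. With the replicate number as a block, *Gpm6a* lost it (-1.70, limma adjusted p = 0.0775) while *Bnc1* gained it (-1.68, limma adjusted p = 0.0416). It was also lost without any 1 array other than non-IRI 3 (limma adjusted p from 0.057 without IRI 1 to 0.206 without IRI 3).

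The remaining 8 members did not pass in the main fit. *Bnc1* differed by -1.58 on the log2 scale (SE 0.35, limma adjusted p = 0.0599), with mean levels of -1.60 ± 0.65 (SD, n = 3) with IRI and -0.021 ± 0.42 (SD, n = 4) without. It passed in 6 of 21 other settings (limma adjusted p from 0.0209 to 0.0477), while *Gpm6a* lost its call in 11 of 20. *Upk1b* differed by -0.99 (SE 0.26, limma adjusted p = 0.112), which became -1.20 (limma adjusted p = 0.0295) without non-IRI 3. The groups did not overlap, with IRI lower, for these 2 genes and *Gpm6a*, which makes 3 of 9 members against 9.26% of all genes. *Msln* differed by -0.41 (adjusted p = 0.447 by limma) and *Wt1* by -0.26 (adjusted p = 0.696 by limma), both smaller than the range of their non-IRI arrays.

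The keratins and *Cdh1* overlapped between the liver groups. The log2 difference was -0.89 for *Krt18* (SE 0.33, limma adjusted p = 0.258), -0.74 for *Krt19* (SE 0.35, limma adjusted p = 0.381) and -0.51 for *Krt8* (SE 0.40, limma adjusted p = 0.617). *Cdh1* was the 1 member with a positive difference, 0.57 (SE 0.29, limma adjusted p = 0.413). In all, 8 of 9 differences were negative, where 48.4% of all genes had a negative one, and the members' median was -0.74 beside 0.012 over all genes. For these 8 the group means ran in the order culture, IRI, non-IRI.

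**Figure D2:**
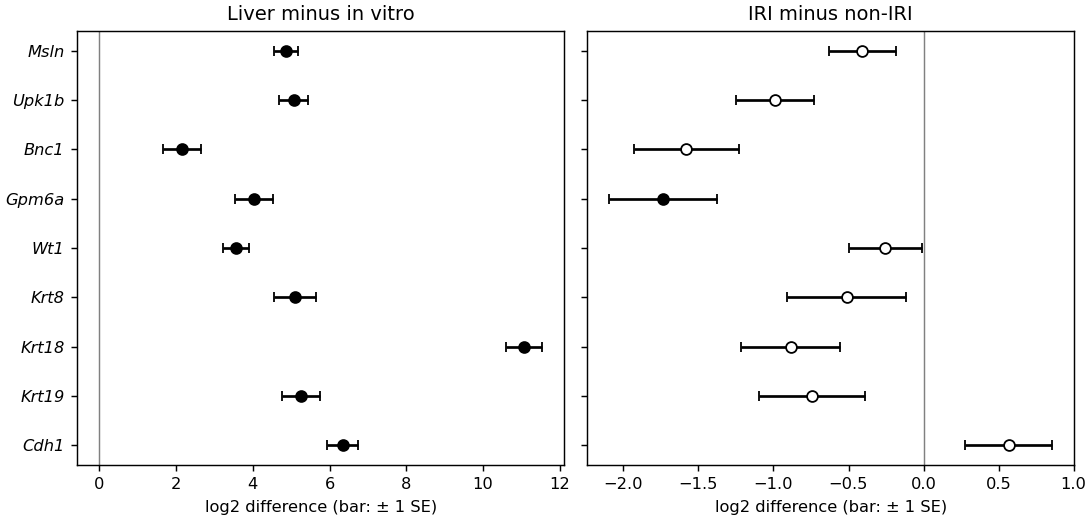
Log2 differences of the 9 genes (horizontal axes, bars 1 SE) for the mean of the liver groups minus the culture, left, and IRI minus non-IRI, right. Filled points passed an adjusted p of 0.05; all 9 did on the left, where the values of *Gpm6a*, the keratins and *Cdh1* are fitted against a culture signal not well above background, and only *Gpm6a* did on the right.

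Several members shared their lowest or highest array. Among the non-IRI arrays, non-IRI 3 was the lowest for 6 of the 9 genes, namely *Msln*, *Upk1b*, *Bnc1*, *Gpm6a*, *Wt1* and *Krt19*. Among the IRI arrays, IRI 1 was the highest for 5 of the 9, namely *Msln*, *Bnc1*, *Gpm6a*, *Wt1* and *Krt19*. The share of all genes with the same lowest or highest array was not counted. Of 12 probes tested for an outlying non-IRI array, 0 were flagged. *Krt8* and *Krt18* followed another order, both being highest on IRI 2 among the IRI arrays and lowest on non-IRI 4 among the non-IRI arrays.

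There were 2 probes for 5 of the 9 members, and the probes of a gene did not always run the same way. The other *Krt18* probe read 1.47, 2.70 and 1.63 with IRI and 2.85, 3.01, 3.12 and 2.20 without, and was not well above background in culture at -6.64. Its log2 difference between the liver groups was -0.86 (limma adjusted p = 0.302 in a fit of every kept probe), close to that of the probe used. The other *Wt1* probe was higher with IRI where the probe used was lower: it read -2.39, -1.80 and -2.20 with IRI and -2.24, -2.04, -3.00 and -2.37 without, a log2 difference of 0.28 (limma adjusted p = 0.676). Neither *Wt1* probe passed the test between the liver groups, so the sign of *Wt1* there rests on the probe. In culture the other *Wt1* probe read -4.45 and was not well above background. Its fitted log2 difference between liver and culture was 2.18 (limma adjusted p = 0.00386 in the fit of every kept probe).

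The other *Upk1b* probe was dimmer and was well above background on 2 of 3 IRI arrays, 4 of 4 non-IRI arrays and not in culture. It read -6.20, -3.44 and -3.97 with IRI and -2.93, -2.68, -4.05 and -3.27 without, and differed between the liver groups by -1.30 (limma adjusted p = 0.394). Unlike the probe used, it overlapped between the groups, and on liver against culture it stayed short of the threshold (limma adjusted p = 0.0502). The other *Bnc1* probe was well above background on non-IRI 1 alone, and the other *Gpm6a* probe on 0 of 8 arrays; these 2 of 14 probes were not tested, so the *Gpm6a* and *Bnc1* results rest on 1 probe each.

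**Figure D3:**
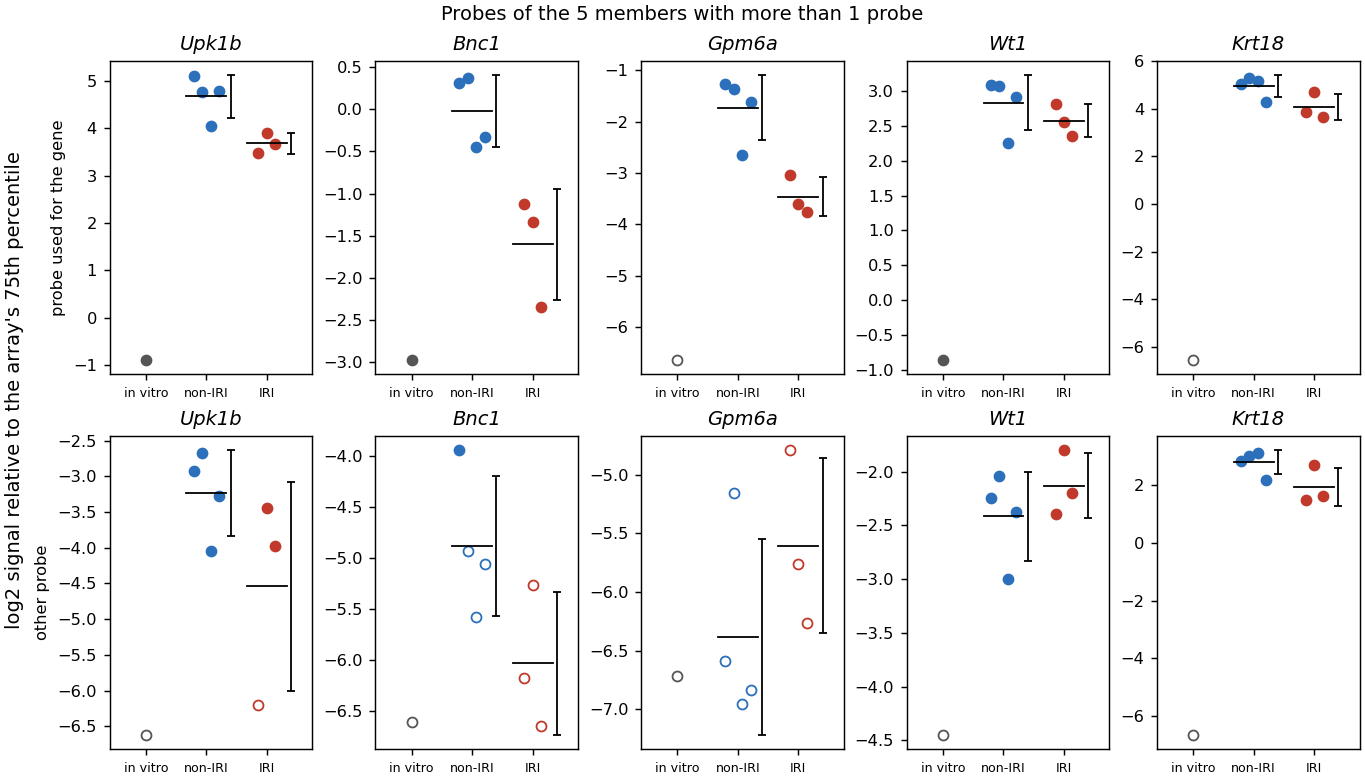
Levels of both probes of the 5 genes with more than 1 probe, as log2 signal relative to the array's 75th percentile (vertical axes, each with its own range); the upper row is the probe used for the gene and the lower row the other probe. Points are arrays (culture grey, non-IRI blue, IRI red), open where not well above background, lines are means and bars 1 SD; the lower *Gpm6a* panel has open points only.

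Other mesothelial genes rose in part. Of 13 listed, 8 had a probe named by symbol and 7 were measurable, and 3 of the 7 rose on liver against culture and 0 fell, with a median log2 difference of 1.50. Medians over lists are of fitted differences, also for genes not well above background in the culture. *Slpi*, a secreted inhibitor of leukocyte proteases that many epithelia make, rose by 9.50 on the log2 scale (limma adjusted p = 7.19e-05). *Podxl*, the sialomucin podocalyxin, also of podocytes and endothelium, was at least 99.2-fold higher (limma adjusted p = 0.000244). *Calb2*, the calcium-binding protein calretinin, rose by 2.05 (limma adjusted p = 0.00472). Between the liver groups 1 of 7 fell: *Aldh1a2*, a retinoic acid synthesising enzyme, was at least 1.57-fold lower with IRI (limma adjusted p = 0.0195), being well above background on 3 of 4 non-IRI arrays and 0 of 3 IRI arrays. That call was lost without IRI 2 or 3 or non-IRI 1, 2 or 4 (limma adjusted p for *Aldh1a2* from 0.0587 to 0.0748), and with normexp background correction its difference shrank from -2.15 to -0.26 (limma adjusted p = 0.181). *Aldh1a2* was kept through the non-IRI arrays alone and its IRI values are not measured levels, so that call is a description. The median over the 7 was -0.50.

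Family relatives of the members were few on these arrays. Of 7 listed, 3 were measurable, and 0 of 3 passed limma's test in either comparison; at an unadjusted p under 0.05, 1 was higher on liver than in culture and 0 passed between the liver groups, where all 3 differences were negative. In non-IRI against culture 1 of 3 rose, *Gpm6b*. *Gpm6b*, of the proteolipid family, differed between liver and culture by 1.40 on the log2 scale (limma adjusted p = 0.0566), and *Bnc2*, the other basonuclin, by -0.68 (limma adjusted p = 0.148). *Gpm6b* lay close to the threshold: it passed without IRI 2 or non-IRI 3, among probes well above background on all arrays, among named genes only, with array weights, and with a trended and robust prior (limma adjusted p from 0.0393 to 0.0491).

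Junction and other epithelial genes moved in both directions between liver and culture. Of 38 listed, 21 were measurable. Of the 21, 11 rose, where 16.0% of all genes rose, 4 fell, where 18.1% of all genes fell, and 6 did neither. Most of the 11 were not well above background in the culture and were kept through the liver arrays alone. For these the rise is a description and not a test. The median log2 difference over the 21 was 0.79. The 3 with the smallest p were tight junction genes: the scaffold gene *Tjp3* was at least 10.6-fold higher (limma adjusted p = 1.45e-05), *Ocln*, which encodes occludin, at least 13.4-fold (limma adjusted p = 2.81e-05) and the claudin gene *Cldn4* at least 5.18-fold (limma adjusted p = 0.000107). Among those that fell, 3 are named here after their values were seen; they serve desmosomes or the catenin link of cadherins, and fibroblasts also express some of them. *Pkp2* fell by 2.90 (limma adjusted p = 0.0017), *Jup* by 1.57 and *Ctnna1* by 1.28 on the log2 scale.

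Between the liver groups 1 of those 21 genes fell, with a median log2 difference of -0.048 over the list. *Spint2*, which encodes a membrane inhibitor of serine proteases, read -4.80, -4.98 and -5.23 with IRI and -1.14, -1.94, -1.30 and -1.65 without. It was well above background on all 4 non-IRI arrays and on 0 of 3 IRI arrays, and was at least 7.75-fold lower with IRI (limma adjusted p = 0.00136). *Spint2* too was kept through the non-IRI arrays alone, and the fit sets them against signals that were not well above background; with normexp background correction its log2 difference was -0.89 in place of -3.50 (limma adjusted p = 0.00452).

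Of 11 keratins of stratified epithelia listed, 7 had a probe named by symbol and 4 of these were measurable, and 2 of the 4 rose on liver against culture (median 2.24). *Krt14*, the type I keratin of basal keratinocytes, read 1.34, 2.06 and 0.72 with IRI, 4.20, 3.56, 2.71 and 3.52 without, and -5.47 in culture, where it was not well above background. It was at least 118-fold higher on liver than in culture (limma adjusted p = 5.02e-05), and *Krt13*, a type I keratin of mucosa, at least 2.14-fold (limma adjusted p = 0.00213). With IRI *Krt14* fell by 2.12 on the log2 scale against non-IRI (limma adjusted p = 0.0357), the 1 of 4 in the list to pass, where the median was 0.058. That call was lost with the replicate block (limma adjusted p for *Krt14* of 0.0642) and without IRI 1 or 3 or non-IRI 1, 2 or 4 (0.0778 to 0.143), and also with no filter on dim probes (0.0523) and among named genes only (0.0627).

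Mesenchymal genes of the epithelial-mesenchymal switch showed small differences. Of 15 listed, 13 were measurable, and on liver against culture 1 rose and 4 fell (median 0.061). *Tgfbi*, an extracellular matrix protein induced by TGF-beta, rose by 1.68 on the log2 scale (limma adjusted p = 0.0015). *S100a4*, a calcium-binding protein of fibroblasts and leukocytes, fell by 1.44 (limma adjusted p = 0.0102), *Vim*, which encodes the filament protein vimentin, by 1.22 (limma adjusted p = 0.0108), and the transcription factor genes *Twist1* by 1.26 and *Twist2* by 0.81. All 4 falls were lost with the replicate block (limma adjusted p from 0.063 to 0.0675), *Twist1* also without IRI 2 or 3 (limma adjusted p = 0.0579 and 0.0607), and *Twist2* within scan 1 (-0.40, limma adjusted p = 0.211). With IRI *Twist2* rose by 0.80 against non-IRI (limma adjusted p = 0.0312), the 1 of 13 to pass beside a list median of 0.17; it did not pass with the replicate block (limma adjusted p = 0.162) or without IRI 2, IRI 3, non-IRI 1, 2 or 4 (0.0692 to 0.159), nor with median scaling (0.0653) or no filter on dim probes (0.0812).

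Genes of other cell types differed between the same groups, and their part in the members' differences was not tested. Of 15 hepatocyte genes, 10 were measurable. With IRI against non-IRI 8 rose (median 3.15), where 0.357% of all genes rose. Among these 8, *Apoh* was well above background on 0 of 4 non-IRI arrays, so its rise, at least 4.61-fold, is a lower bound. On liver against culture 8 rose (median 4.08), where 16.0% of all genes rose. By group, 8 of the 10 hepatocyte genes rose with IRI against culture (median 5.76). Without IRI, 3 of the 10 rose against culture and 1 fell (median 2.40). Their levels, each relative to the array's 75th percentile on the linear scale and summed, were 88.01 to 89.82 with IRI, 35.62 to 98.97 without, and 1.049 in the culture, where the hepatocyte genes *Ttr*, *Fga* and *Serpina1* were not well above background. The same sum over the 3 keratins and *Cdh1* was 14.64 to 27.97 with IRI and 21.53 to 41.85 without, and 0.05354 in culture. The IRI and non-IRI ranges overlapped for both sums. These sums, and those below, are weighted to their brightest genes. Those are *Krt18* here and *Tf* among the hepatocyte genes, at 6.52 on non-IRI 3. *Tf* did not pass between the liver groups (0.27, limma adjusted p = 0.775). As means of log2 levels, the hepatocyte genes ran from 0.93 to 1.21 with IRI and from -2.90 to -0.81 without, and the keratins with *Cdh1* from 0.39 to 0.61 with IRI and from 0.50 to 1.11 without. On non-IRI 3, lowest for 6 members, the mean log2 levels of the hepatocyte genes (-0.81) and of the blood cell genes (0.088) were the highest of the non-IRI arrays.

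Blood cell genes gave 14 measurable of 15, with 11 rising on liver against culture (median 6.32), where 16.0% of all genes rose. Of these 11, all but *Cd68* were not well above background in the culture and were kept through the liver arrays alone. For them the rise is a description and not a test. Between the liver groups 0 passed limma's adjusted test, while 8 were higher with IRI at an unadjusted p under 0.05 and all 14 had a positive difference (median 2.16). Their summed level was 170.5 to 217.1 with IRI, 105.4 to 168.9 without and 0.8692 in culture, where 12 of the 14 were not well above background, the pan-leukocyte gene *Ptprc* among them. Over the 5 mesothelial members the sum was 62.27 to 75.88 with IRI, 70.61 to 114.7 without and 3.104 in culture.

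Endothelial genes, 6 measurable of 10, had 3 rise on liver against culture (median 3.04) and 0 pass between the liver groups by limma (median -0.75; 1 lower at an unadjusted p under 0.05). Their summed level was 21.57 to 28.72 with IRI, 24.88 to 48.4 without and 1.664 in culture. Bile duct genes, 5 measurable of 11, had 2 rise and 2 fall on liver against culture (median 0.67), 0 pass between the liver groups by limma (median 0.0062; 0 at an unadjusted p under 0.05), and sums of 22.87 to 51.95 with IRI, 26.67 to 82.02 without and 23.08 in culture. Stromal genes had 1 of 11 rise and 2 fall on liver against culture (median -0.41), 0 pass between the liver groups by limma (median 0.16; 1 lower at an unadjusted p under 0.05), and sums of 1676 to 2483 with IRI, 1776 to 2144 without and 2182 in culture.

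**Figure D4:**
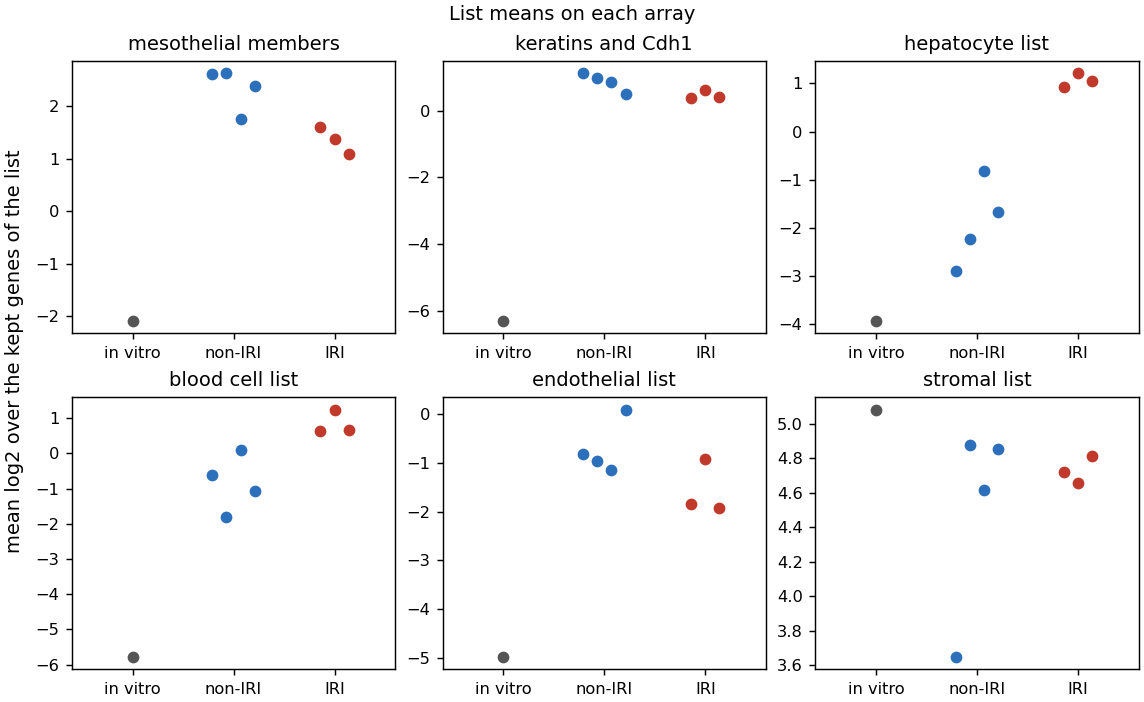
Mean log2 level over the measurable genes of 6 lists (vertical axes, each with its own range) on each culture (grey), non-IRI (blue) and IRI (red) array. The mesothelial members and the keratins with *Cdh1* are lowest in culture, as are the hepatocyte, blood cell and endothelial lists, but not the stromal list. The hepatocyte list is highest with IRI, at 0.93 to 1.21, while it lies between -2.90 and -0.81 without.

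The named genes whose profile over the 8 arrays lay nearest the mean profile of the 5 mesothelial members, among 7835 genes well above background on every array, were *Tmem178a*, *Smim22*, *Shroom2*, *Igf1* and *Cd200*. Their root mean square distances, after centring each gene, ran from 0.28 to 0.43 on the log2 scale. Among those nearest the mean profile of *Krt8*, *Krt18* and *Krt19* were *Ccl12*, *A2m*, *Cfhr4* and *Coro1a*, at 0.35 to 0.54. Every pair of these profiles shares the step between 7 liver arrays and 1 culture array, so nearness is a description of these arrays.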

How the data were processed

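The intensity values deposited by the authors are each array's scanner signal, background-subtracted and detrended within the array by Feature Extraction 11.0.1.1 per the file headers (the submitters' processing notes name version 9.1). A deposited table holds the authors' log2 values, which matched log2 signals scaled to the 75th percentile and centred per probe (r from 0.999766 to 0.999972). Its 8 column medians ran from -0.15 to 0.177. Here, log2 processed signal was taken relative to the 75th percentile over 43379 non-control spots; 1639 control spots and 45 to 117 spots per array marked as outliers were left out, and 0 were saturated. The 75th percentile ranged from 156 to 291 intensity units, 53.5% to 59.7% of spots were well above background, and the number of arrays limits the precision.

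A probe was kept if well above background on at least 3 of 7 liver arrays or in culture (24821 of 41012; 12 of the 14 member probes). Symbols came from RefSeq transcripts and reached 17541 probes; unnamed probes stayed in the fits. A gene took its kept probe with the highest mean. Group means were fitted with limma 3.58.1 (R 4.3.3; lmFit, eBayes; residual df 5, prior df 2.81) on all 8 arrays, with Benjamini-Hochberg adjustment over all genes, and checked on simulated data. Deviations of same-numbered IRI and non-IRI arrays, which share a slide position, correlated at 0.188, 0.163 and 0.101, each highest for its own number, so the block was fitted too. The files hold no mean signal column, so normexp used median signals. The genes followed, the gene lists and the tests were chosen with earlier results of these data known. Listed genes were named by the smallest p values within each list (up to 3 per comparison) and where 5 or fewer passed; those named here are a part of them, and some are not reported here.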

Additional observations from a re-analysis of the deposited data

How the results depend on the processing

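Between the liver groups, the count of members past the test was 1. It became 2 with median scaling, array weights, or a trended and robust prior, and 0 with normexp background correction, with no filter on dim probes (36049 genes tested) or with only genes that have a symbol (9602 tested). Leaving out 1 array at a time gave 0 to 2. With the replicate block the count stayed 1, with *Bnc1* in place of *Gpm6a*; the block kept the 9 of 9 members past the test between liver and culture, where the culture array carries number 1 although it lies at another slide position than the other arrays of that number. The difference of *Gpm6a* shrank to -0.65 with normexp and to -0.77 with normexp after bright background spots were set to the median (limma adjusted p = 0.0713 and 0.065). *Wt1* reversed to 0.014 (limma adjusted p = 0.986) when its kept probes were averaged. The causes were not tested.

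Between liver and culture, 9 of 9 members passed, and 4 of 4 when probes had to be well above background on all arrays, which leaves out the other 5. With normexp *Gpm6a* missed the threshold (0.64, limma adjusted p = 0.0548), as did *Calb2*, *Krt13*, *Vim* and *Twist1* (limma adjusted p from 0.0825 to 0.0963); *Vim* and *Twist1* also missed it with quantile normalization (0.12 and 0.114). Median scaling moved the median of all genes to -0.55 and the split to 2761 higher and 6479 lower, from 3409 and 3865. Counts over all genes past the test fell from 638 between the liver groups to 231 with the replicate block, 112 with named genes only, 344 and 277 when IRI 2 or IRI 3 was left out, and 420 and 416 when non-IRI 1 or non-IRI 4 was, rose to 1821 with array weights, and between liver and culture went from 7274 to 4141 with named genes only. A scan block could not be fitted between the liver groups. Signals near background limit the size of 5 members' differences from culture, and the IRI levels of *Gpm6a* also lay near background.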
